A study of Mus musculus with 12 samples.

Results

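Cytochromes P450, carboxylesterases and aldehyde dehydrogenases were examined in endothelial cells sorted from 2 mouse tissues on 2 diets. The members are the genes that the deposited table marks as protein coding and whose symbol places them in one of these families, with Cyp1a1 and Cyp1b1 set aside by the rule. There were 79 such genes among the 27825 listed, made up of 51 P450 genes, 10 carboxylesterases and 18 aldehyde dehydrogenases. Of these, 65 had a mean of at least 10 normalized counts over the 12 libraries and were tested, and 14 did not and are given only by their level. Another 23 rows of the same families lay outside the rule, mostly because the table gives them another transcript type.

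All mice were male and of the genotype ROSA26-eYFP+/+ Cdh5-CreERT2+, in which a tamoxifen-dependent Cre driven by the endothelial gene Cdh5 turns on a yellow fluorescent reporter. They ate tamoxifen diet from 6 weeks of age for 2 weeks, so this treatment is common to every group. From 8 weeks of age they were kept for 12 to 13 weeks on normal chow (NC, 5.8% fat) or on a high fat diet (HFD, 60% fat). The 4 groups of 3 libraries combine mesentery or epididymal fat with chow or HFD, where HFD stands for the high fat diet. Each sample pooled tissue of 6 mice, and digestion took place with actinomycin D, a blocker of transcription, before fluorescent cells were sorted. The titles give letters A, B and C in every group, while the protocol speaks of 2 independent replicates, so p-values measure only the spread between these libraries, which may be partly technical. In bulk libraries, fewer cells of a type and less RNA per cell cannot be told apart.

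Cytochromes P450 are haem enzymes that insert oxygen into their substrates with electrons from the reductase Por. Some oxidise drugs and solvents, others make or remove steroids, bile acids, vitamin D, retinoic acid and fatty acid signals such as the epoxides formed from arachidonic acid in vessel walls. Carboxylesterases cut ester bonds in drugs and in stored lipid, and aldehyde dehydrogenases turn reactive aldehydes into acids, including retinaldehyde into retinoic acid. In liver and gut these families are the main route of drug clearance, and several members also act in fat cells and in endothelium.

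Promoter windows are shown for genes whose tissue or diet differences carry the results below. Each holds the 250 bases before the annotated start, 5′ to 3′ on the gene's strand, from RefSeq on GRCm38.p6. The submitters' processing notes name mm39, so these positions are not those of the deposited counts. Capitals mark 3 motifs on either strand. They are TATAAA, known as the TATA box; the letters CCAAT, bound by factor NF-Y; and GGGCGG, known as the GC box. No 2 of them overlap in the windows shown. For Aldh6a1 and Aldh1a1 the table lists a further start, which is not shown.
Cyp2e1, chr7:140763569-140763818, plus strand: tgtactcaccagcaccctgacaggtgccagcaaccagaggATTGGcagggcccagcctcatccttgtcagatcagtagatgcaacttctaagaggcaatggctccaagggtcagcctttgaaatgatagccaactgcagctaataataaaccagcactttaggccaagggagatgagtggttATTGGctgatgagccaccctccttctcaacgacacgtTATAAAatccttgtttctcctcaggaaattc
Ces2e, chr8:104926010-104926259, plus strand: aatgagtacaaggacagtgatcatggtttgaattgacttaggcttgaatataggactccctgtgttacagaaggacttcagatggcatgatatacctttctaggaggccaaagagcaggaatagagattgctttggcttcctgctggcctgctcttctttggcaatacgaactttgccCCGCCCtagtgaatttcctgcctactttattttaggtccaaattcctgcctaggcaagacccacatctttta
Aldh6a1, chr12:84451025-84451274, minus strand: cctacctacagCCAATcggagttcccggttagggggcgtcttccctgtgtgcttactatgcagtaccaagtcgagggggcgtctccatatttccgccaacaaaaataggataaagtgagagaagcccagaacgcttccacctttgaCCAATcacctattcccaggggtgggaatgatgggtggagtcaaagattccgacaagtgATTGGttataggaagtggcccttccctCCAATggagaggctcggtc
Aldh1a1, chr19:20601718-20601967, plus strand: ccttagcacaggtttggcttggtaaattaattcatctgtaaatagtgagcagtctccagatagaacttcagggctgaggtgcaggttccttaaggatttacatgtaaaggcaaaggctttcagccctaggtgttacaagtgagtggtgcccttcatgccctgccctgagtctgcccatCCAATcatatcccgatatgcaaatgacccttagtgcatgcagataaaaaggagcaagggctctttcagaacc
Aldh1a7, chr19:20727557-20727806, minus strand: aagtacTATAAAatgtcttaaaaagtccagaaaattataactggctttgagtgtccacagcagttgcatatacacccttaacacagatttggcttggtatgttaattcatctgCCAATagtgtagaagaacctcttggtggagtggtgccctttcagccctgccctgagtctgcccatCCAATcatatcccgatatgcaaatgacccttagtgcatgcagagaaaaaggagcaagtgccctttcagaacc

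The Cyp2e1 window has a TATA box 31 to 26 bases before the start and 2 CCAAT boxes on the minus strand, whereas the Ces2e window has a single GC box and none of the other motifs. The Aldh6a1 window has 4 CCAAT boxes. The Aldh1a1 and Aldh1a7 windows share an unbroken run of 65 bases, from 94 to 30 bases before each start, and are identical at 94 of the last 100 bases. The genes are close relatives, and reads may be split between them where their transcripts are alike. In all, 56 of the 79 members matched the RefSeq table, with 62 windows. A TATA box was found in 25.8% of these windows and in 12.4% of all 32851 windows of the same length. CCAAT was found in 59.7% of member windows and 33.8% of all windows, and the GC box in 22.6% and 32.7%. The nuclear receptor half-site AGGTCA was found in 17.7% of member windows and 14.0% of all, and GCGTG, the core of the Ahr site, in 19.4% and 28.2%. The direct repeats AGGTCANAGGTCA and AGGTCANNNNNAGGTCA, each of which contains the half-site, were in no member window, and in 0.0335% and 0.00913% of all windows. A match here is only a match of letters.

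Library totals ranged from 8348897 to 25397963 reads on listed genes, and 3 reads corresponded to between 2.12 and 4.22 normalized counts. The 10 endothelial markers summed to between 37579 and 112638 normalized counts per library, and none was at 0 throughout a group. Other cell types were also present. The 10 macrophage markers summed to 1300 to 6590 in mesentery on chow, 3921 to 21782 in mesentery on HFD, 5393 to 81491 in epididymal fat on chow and 128773 to 323840 in epididymal fat on HFD. The 10 adipocyte markers summed to 63923 to 86908 in epididymal fat on chow, and to 4009 to 14564 in the 9 other libraries. Pancreatic acinar markers summed to 26735 to 174270 in mesentery and 196 to 566 in epididymal fat. Fibroblast markers summed to 19185 to 63009 in epididymal fat and 4725 to 10316 in mesentery. Hepatocyte markers, from an organ where many of these enzymes are made, summed to only 50.3 to 490, with Alb between 11 and 171.

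Most members were weakly represented. The mean over the 12 libraries was 10 to 50 normalized counts for 35 members, 50 to 200 for 12 and at least 200 for 18, and 39 members stayed under 50 in all 4 group means. The untested 14 included Cyp17a1 (mean 9.01), an enzyme of androgen synthesis, and Cyp8b1 (5.14), which makes cholic acid. In the 2 epididymal libraries from pools numbered 87 (replicate C on chow) and 88 (replicate A on HFD), low members stood high. Both exceeded all 4 other epididymal libraries for 38 of the 49 members with a mean under 50, or 77.6%, against 64.0% of all genes at that level. Cyp2c29, a liver drug oxidase, read 0, 5.21 and 160 in epididymal replicates A, B and C on chow and 206, 8.26 and 38.9 on HFD. Mesentery libraries were not counted this way. There Cyp2c29 read 17.1, 6.27 and 234 on chow, where replicate C is also of pool 87, and 10.3, 0 and 5.93 on HFD. Of the 30 members with a mean of at least 50, 3 showed this order, and of the 18 with at least 200 none did. The share of all genes at these higher levels is not given here, so these counts are not set apart from it. Every member called below had a mean of at least 50. Reads of the near-identical Cyp2c, Cyp2d, Cyp3a, Cyp4a, Cyp4f, Ces1 and Ces2 copies may be split between copies.

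**Figure D1:**
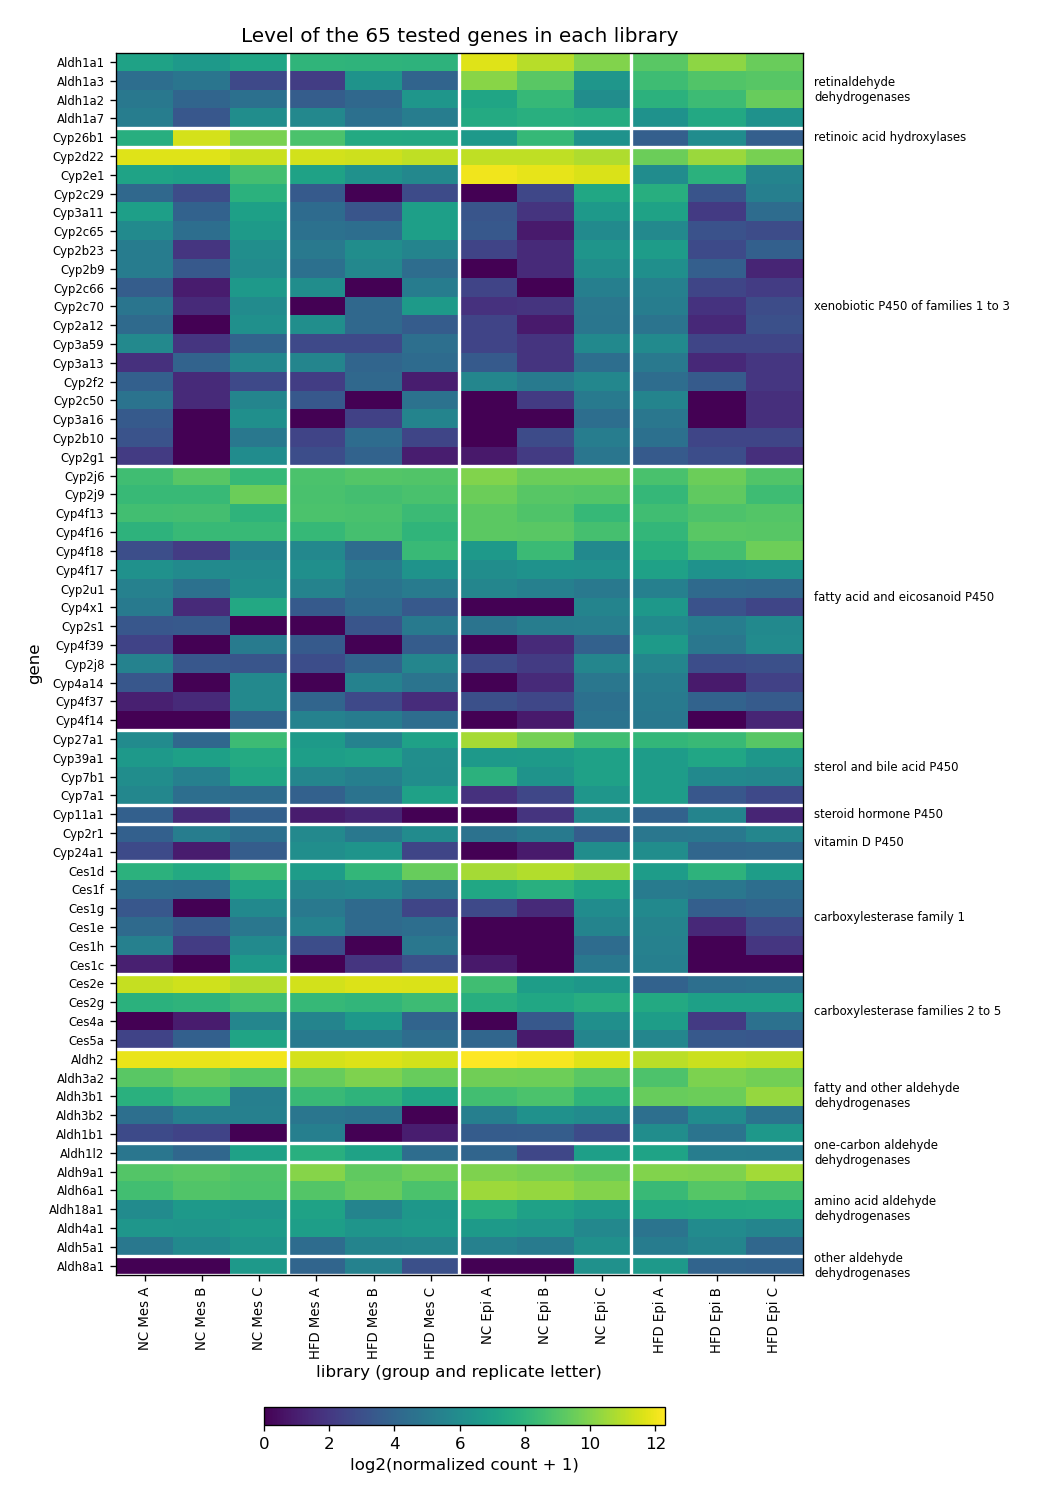
Level of each of the 65 tested members (rows, ordered by role and mean) in each of the 12 libraries (columns, replicates A to C of each group), as log2(normalized count + 1) on the colour scale. Cyp2e1 is bright in the 3 epididymal libraries on chow and Ces2e in the 6 mesentery libraries. Many low members are brighter in epididymal replicate C on chow and replicate A on HFD, and some in mesentery replicate C on chow.

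Compared per length of exon, in normalized counts per kb, the order of the members differed between the groups. In mesentery on chow, Ces2e (871 ± 136, SD, n = 3), Cyp2d22 (781 ± 104) and Aldh2 (764 ± 40.6) led, and their library ranges overlapped. Aldh2, the mitochondrial enzyme that clears acetaldehyde, did not overlap the next, Cyp26b1 (254 ± 266). In mesentery on HFD Ces2e (1135 ± 81.9) stood alone at the top, above Cyp2d22 (650 ± 72.6) and Aldh2 (578 ± 42.2), which overlapped each other. In epididymal fat on chow Cyp2e1, an oxidase of ethanol, acetone and small solvents, led at 1697 ± 262 without overlap with Aldh2 (835 ± 170). Ces1d (698 ± 88.3), an esterase that also cuts triacylglycerol, overlapped Aldh2 but not Cyp2d22 (536 ± 58.8), which overlapped Cyp27a1 (435 ± 291). In epididymal fat on HFD neither Cyp2e1 nor Ces1d was among the 8 highest. Aldh3b1 (450 ± 165), Aldh2 (449 ± 51.8), Aldh9a1 (347 ± 96.1) and Cyp2d22 (257 ± 90.4) led there, each overlapping the next.

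The effect of the high fat diet in epididymal fat was tested with limma on log2(normalized count + 1), and p-values were adjusted over all 22238 genes tested. A member is called when its adjusted p is under 0.05. Of the 65 members, 5 were called, all lower on HFD: Cyp2e1, Ces1d, Ces2e, Aldh6a1 and Cyp2d22. That is 7.69% of the members, against 0.549% of all genes tested, both directions together. Calls over all genes ran mostly the other way, with 93 higher and 29 lower on HFD. The median log2 change of the tested members was 0.34, and that of all genes 0.10. Scaling the libraries to the same total moved the median of all genes by -0.14 here, by 0.13 in the mesentery, by -0.18 in the tissue comparison on HFD and by -0.27 in the difference of the diet effects; the sign of no called member turned.

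Cyp2e1 read 4233, 3651 and 3103 normalized counts in the 3 epididymal libraries on chow and 63.0, 228 and 45.3 on HFD. The lowest chow library lay far above the highest HFD library. On the log2 scale Cyp2e1 fell by 5.37 (SE 0.567, limma adjusted p 0.0021). It was also called by edgeR on the recovered reads (adjusted p 0.0273) and in each fit that left out 1 library, but not without the mean-variance trend (0.0573).

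Among the carboxylesterases, Ces1d read 1619, 1877 and 1463 on chow and 109, 248 and 113 on HFD, again with no overlap. Ces1d fell by 3.50 on the log2 scale (SE 0.519, limma adjusted p 0.0085). The call was lost with edgeR (0.0552) and without HFD replicate C (0.0703). Ces2e, of the carboxylesterase 2 family, read 365, 114 and 90.9 on chow and 13.5, 21.5 and 23.4 on HFD. Its chow level rests partly on replicate A, which was more than any other epididymal library, but the groups did not overlap. Ces2e fell by 2.98 (SE 0.404, limma adjusted p 0.0059), and edgeR also called it (0.0326), but not the fit to the 2 epididymal groups alone (0.0665). Ces1f was not called, with 157, 216 and 142 on chow against 33.7, 28.1 and 20.5 on HFD (log2 change -2.61, SE 0.656, limma adjusted p 0.139).

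Aldh6a1, the mitochondrial enzyme of valine and thymine breakdown, read 1431, 1317 and 1038 on chow and 319, 529 and 409 on HFD. All 3 chow libraries lay above all 3 HFD libraries. Aldh6a1 fell by 1.60 on the log2 scale (SE 0.230, limma adjusted p 0.0084). Its call was lost with edgeR (0.0566), in the libraries of pools 50 to 53 alone (0.0661) and without HFD replicate C (0.0561).

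Cyp2d22, a relative of the human drug oxidase CYP2D6, read 2205, 2249 and 1831 on chow and 736, 1406 and 875 on HFD. It fell by 1.11 (SE 0.224, limma adjusted p 0.0489), close to the threshold. The call held in 7 of 18 alternatives and was lost without any 1 of 5 of the 6 epididymal libraries: chow A (0.247), B (0.135) or C (0.0871), or HFD A (0.191) or C (0.318). Aldh2 lay just past the threshold on the other side, with 5045, 4463 and 3329 on chow and 2056, 2584 and 2269 on HFD (log2 change -0.88, SE 0.180, limma adjusted p 0.0511). Without HFD replicate C, only Cyp2e1 and Ces2e of the 5 were called. The count of called members was 2 with edgeR, 8 with DESeq2 and 0 with limma without the mean-variance trend. Shares of all genes called in these fits are not given here.

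**Figure D2:**
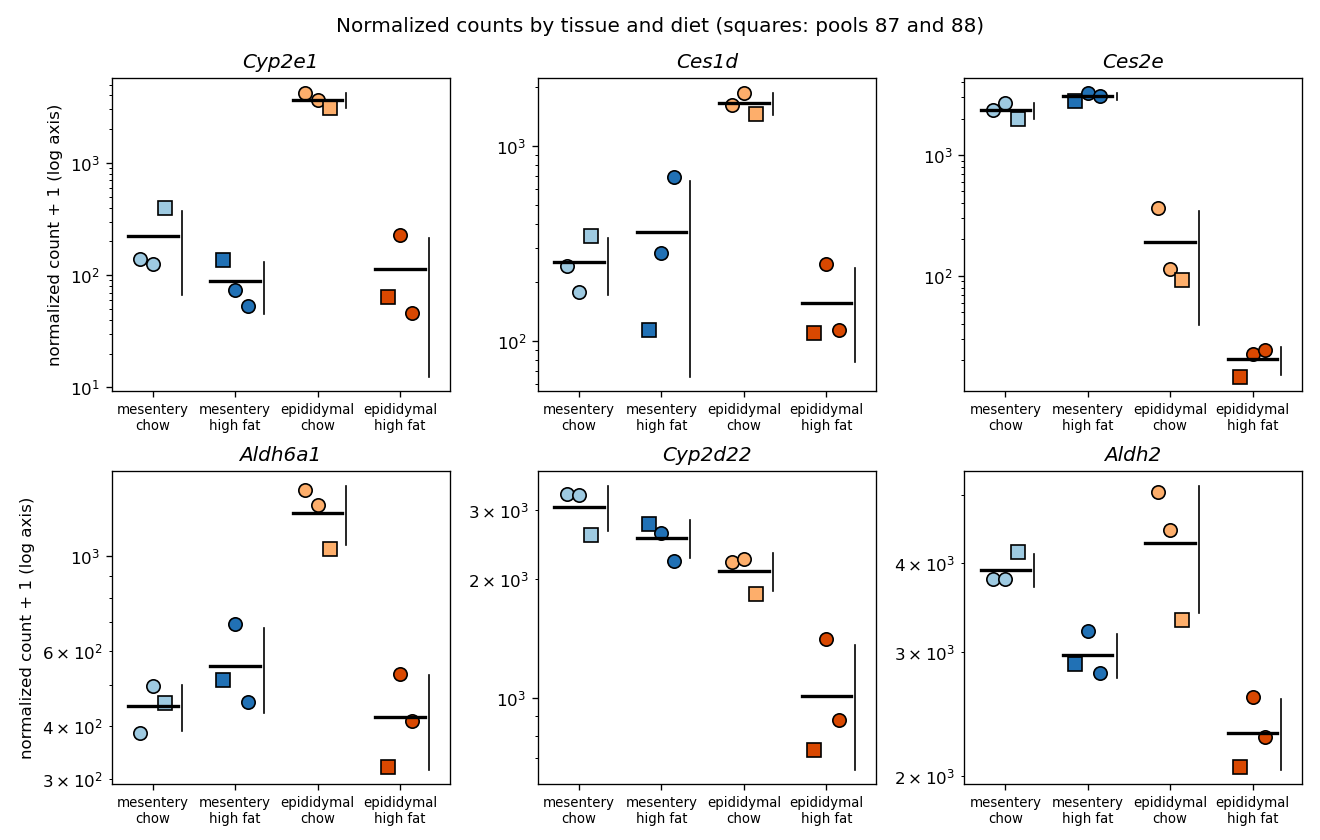
Normalized counts plus 1 (log axes) of 6 members in the 4 groups; points are libraries, squares those of pools 87 and 88, horizontal lines group means and thin vertical lines 1 SD either way. In epididymal fat the HFD libraries of all 6 genes lie below the chow libraries, Cyp2e1 from a mean of 3662 to 112, while mesentery shows smaller shifts.

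Members were also counted by whether the 3 libraries of each diet overlapped. In epididymal fat 11 members were lower in all 3 HFD libraries than in any chow library, 16.9% of those tested against 6.57% of all genes, and 4 were higher, 6.15% against 6.93%. Beside the 5 called genes, Aldh2 and Ces1f, the lower ones were Cyp2j6, Cyp26b1, Cyp2f2 and Aldh1a7. Cyp26b1, which inactivates retinoic acid, read 96.3, 302 and 76.6 on chow and 12.4, 61.9 and 12.0 on HFD (log2 change -2.57, SE 0.874, limma adjusted p 0.346). Aldh3b1, which oxidises lipid-derived aldehydes, was among the higher ones with 386, 446 and 251 on chow and 703, 750 and 1309 on HFD (log2 change 1.33, SE 0.608, limma adjusted p 0.707). Aldh9a1, an enzyme of carnitine synthesis, averaged 864 ± 117 on chow and 1173 ± 325 on HFD, with a limma adjusted p of 0.893. The other higher ones were low: Aldh1b1, a mitochondrial acetaldehyde dehydrogenase, averaged 9.46 ± 2.89 and 61.3 ± 34.4, and Cyp4f39, a fatty acid hydroxylase, 5.00 ± 7.22 and 63.3 ± 37.3 (limma adjusted p 0.912 and 0.463).

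Marker sums of other cells also differed between the diets in epididymal fat. The adipocyte sum was 75115, 86908 and 63923 in epididymal replicates A, B and C on chow and 4211, 14564 and 6974 on HFD, and 3 of its 10 markers were called lower. Adipoq, the gene of the fat cell hormone adiponectin, averaged 6544 ± 940 on chow and 1186 ± 718 on HFD. Most of the chow sum was Cfd, which averaged 50379 ± 8428 on chow and 1161 ± 1109 on HFD. Lep averaged 1002 ± 117 and 1009 ± 533, and Cidea 19.8 ± 7.11 and 40.7 ± 43.8. The other markers of the list had lower means on HFD. High fat replicate B had the highest adipocyte sum of its group and also the highest Cyp2e1, Ces1d, Aldh6a1, Cyp2d22 and Aldh2, though not the highest Ces2e. The same library also had the highest endothelial, smooth muscle and pericyte, fibroblast and mesothelial sums of its group, and the lowest macrophage sum. The macrophage sum was 9339, 81491 and 5393 on chow and 177336, 128773 and 323840 on HFD, without overlap, and 0 of 10 markers were called by limma. Most of this sum in each library was Lyz2, with 5582, 68477 and 3612 on chow and 120783, 100031 and 249273 on HFD. Smooth muscle and pericyte markers summed to 26739, 25240 and 16291 on chow and 6910, 13507 and 10605 on HFD, without overlap, and 1 of 10 was called lower. Fibroblast markers summed to 57922, 41236 and 19185 on chow and 47423, 63009 and 60660 on HFD, with overlap, and 2 of 10 were called higher. Endothelial markers summed to 66488, 80696 and 65790 on chow and 37579, 70581 and 48951 on HFD, with 0 of 10 called. The part of these cells in the change of the members was not tested.

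In mesentery no member was called for the diet by limma, edgeR or DESeq2, while 0.0135% of all genes were called by limma. There were 6 members with an unadjusted p under 0.05, 9.23% against 6.15% of all genes, and the lowest adjusted p of a member was 0.679. The median log2 change was 0.15 for the members and -0.00 for all genes. Groups did not overlap for 4 members higher on HFD, 6.15% against 4.47% of all genes, and for 2 lower, 3.08% against 5.14%. Aldh1a1, which makes retinoic acid, read 134, 98.6 and 151 on chow and 267, 252 and 245 on HFD (log2 change 1.01, SE 0.376, limma adjusted p 0.697). Aldh9a1 averaged 526 ± 40.1 and 831 ± 224, and Ces2e 2351 ± 366 and 3063 ± 221 (SD, n = 3; limma adjusted p 0.679 and 0.953). Cyp4f14, a leukotriene hydroxylase, was the other higher one, at 4.69 ± 8.13 and 32.5 ± 11.8. Aldh2 read 3796, 3796 and 4156 on chow and 2884, 3210 and 2800 on HFD (log2 change -0.40, SE 0.180, limma adjusted p 0.791), so that it lay lower on HFD in both tissues. Cyp11a1, which starts steroid synthesis, was the remaining lower gene, and averaged 0.774 ± 0.707 on HFD, under the level of 3 reads.

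**Figure D3:**
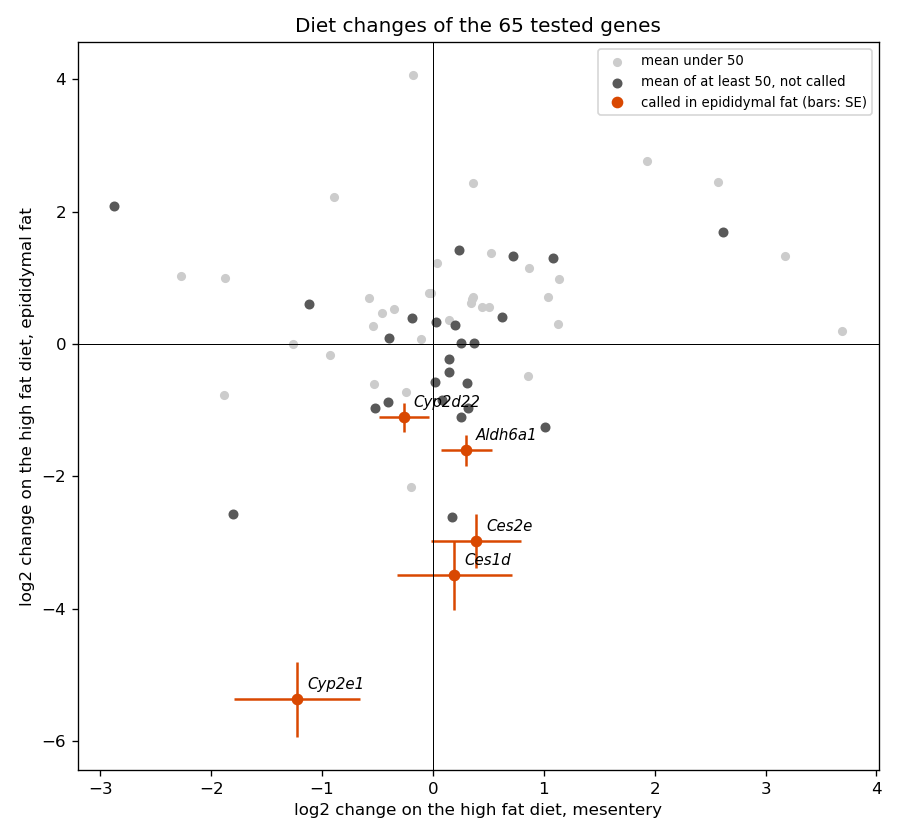
Log2 change on HFD of each tested member in mesentery (horizontal axis) and epididymal fat (vertical axis), with SE bars for the 5 called in epididymal fat and shading by mean level for the others. The 5 called genes lie between -5.37 and -1.11 on the vertical axis and between -1.22 and 0.39 on the horizontal axis, and the widest scatter among the rest is in members with a mean under 50.

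The difference between the diet effects of the tissues was tested directly. No member was called by limma or edgeR, against 0.0045% of all genes by limma, and DESeq2 called 5: Aldh1a1, Aldh6a1, Ces1d, Ces2e and Cyp2e1. The share of all genes called by DESeq2 is not given here, so these 5 have no background share beside them. With limma, 8 members had an unadjusted p under 0.05, 12.3% against 4.71% of all genes, and all 8 differences were negative, meaning a lower or more negative change in epididymal fat. Ces2e differed by -3.37 (SE 0.571, limma adjusted p 0.151), Aldh6a1 by -1.90 (SE 0.325, 0.151), Cyp2e1 by -4.15 (SE 0.802, 0.185) and Ces1d by -3.69 (SE 0.734, 0.191). Aldh1a1 differed by -2.27 (SE 0.531, limma adjusted p 0.335), with changes of 1.01 in mesentery and -1.26 in epididymal fat. Leaving out 1 library brought a single member past the threshold in 3 fits. These were Cyp2e1 without mesentery chow replicate C (0.0477) or epididymal HFD replicate B (0.0217), and Ces2e without epididymal chow replicate A (0.0482). The median difference over all genes was 0.11, and -0.16 with libraries scaled to the same total. Among the markers of other cells, 1 of 10 for smooth muscle and pericytes was called lower by limma. So the diet changes of these genes are not shown to differ between the tissues by the main test.

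Epididymal fat was next compared with mesentery, separately for chow and HFD. Both tissue comparisons share libraries with the diet comparisons, so they are not independent of them. On chow 12 members were called, 11 higher in epididymal fat and 1 lower, 18.5% against 12.8% of all genes in both directions together. Over all 22238 genes 1627 were called higher and 1216 lower. The median log2 difference, epididymal minus mesentery, was -0.10 for the members and -0.08 for all genes. On HFD 7 were called, 3 higher and 4 lower, 10.8% against 8.34%, with medians of -0.13 and 0.06. Over all genes 1092 were called higher and 762 lower on HFD. Aldh1a1, Aldh1a2, Aldh1a3 and Ces2e were called on both diets, 8 members on chow and not on HFD, and 3 the reverse.

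The role with the most called members was that of the 4 Aldh1a genes, grouped by symbol as retinaldehyde dehydrogenases. Whether each of them, Aldh1a7 included, acts on retinaldehyde was not tested. All 4 were called higher in epididymal fat on chow and 3 of the 4 on HFD. On HFD Aldh1a7 was not called, though its epididymal libraries (108 ± 55.5) lay above the mesentery libraries (37.0 ± 15.6). Aldh1a1 read 3300, 1994 and 990 in epididymal fat on chow against 134, 98.6 and 151 in mesentery, a log2 difference of 3.88 (SE 0.376, limma adjusted p 2.75e-05). On HFD it read 561, 1194 and 711 against 267, 252 and 245 (log2 1.61, SE 0.376, limma adjusted p 0.0187). That call was lost without epididymal HFD replicate B (0.0786) or C (0.0617), or mesentery HFD replicate A (0.0520) or B (0.0705). Aldh1a7 averaged 197 ± 17.3 in epididymal fat and 36.3 ± 27.2 in mesentery on chow (log2 2.78, SE 0.624, limma adjusted p 0.0106), and was not called without epididymal chow replicate B (0.0505).

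Aldh1a2 read 147, 306 and 65.4 in epididymal fat and 29.6, 15.2 and 22.5 in mesentery on chow, a log2 difference of 2.67 (SE 0.733, limma adjusted p 0.0290). This call was lost without epididymal chow replicate A (0.0959) or B (0.150), or mesentery chow replicate A (0.0589) or B (0.0921). On HFD Aldh1a2 read 242, 344 and 696 against 11.2, 16.6 and 87.9 (log2 3.86, SE 0.733, limma adjusted p 0.0059), and was called in all 18 alternatives. Aldh1a3 read 1101, 566 and 85.8 in epididymal fat on chow and 20.5, 26.9 and 5.63 in mesentery (log2 4.58, SE 1.01, limma adjusted p 0.0093). Its call was lost without epididymal chow replicate A (0.0577). On HFD Aldh1a3 differed by 4.67 (SE 1.01, limma adjusted p 0.0124), but not without epididymal HFD replicate C (0.0621) or mesentery HFD replicate A (0.0517). The epididymal libraries lay above the mesentery libraries for each of these genes and diets where a call was made.

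Cyp26b1, on the removing side of the same pathway, ran the other way. It read 208, 2955 and 917 in mesentery on chow, a wide spread, and 96.3, 302 and 76.6 in epididymal fat (log2 -2.65, SE 0.874, limma adjusted p 0.0653). On HFD it read 443, 176 and 168 in mesentery and 12.4, 61.9 and 12.0 in epididymal fat (log2 -3.41, SE 0.874, limma adjusted p 0.0294). The call was lost without epididymal HFD replicate A (0.0846) or C (0.135) or mesentery HFD replicate A (0.115) or B (0.0778), and with edgeR (0.102).

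**Figure D4:**
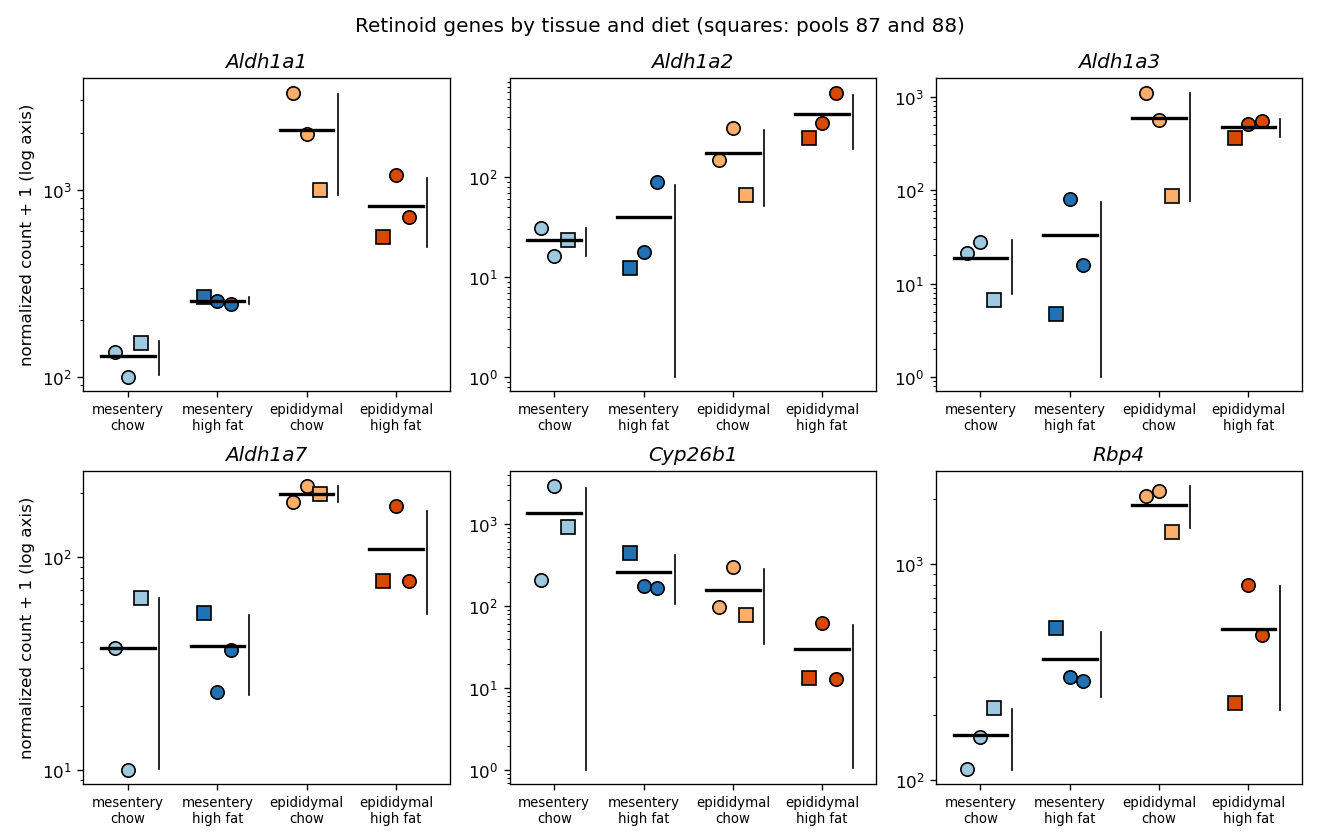
Normalized counts plus 1 (log axes) of the 4 Aldh1a genes, Cyp26b1 and the retinol carrier Rbp4 in the 4 groups. Points are libraries, squares those of pools 87 and 88, horizontal lines means, thin vertical lines 1 SD either way, stopped at 0 counts. The Aldh1a genes and Rbp4 are higher in epididymal fat on chow, and Cyp26b1 ranges from 208 to 2955 among the mesentery chow libraries.

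Ces2e had the largest tissue difference of the members on HFD. It read 2366, 2710 and 1978 in mesentery on chow and 2826, 3264 and 3100 on HFD. The log2 difference, epididymal minus mesentery, was -3.89 on chow (SE 0.404, limma adjusted p 4.78e-05) and -7.26 on HFD (SE 0.404, limma adjusted p 2.48e-07). Both calls held in all 18 alternatives. Ces2g, of the same family, averaged 308 ± 34.8 in mesentery and 142 ± 28.8 in epididymal fat on HFD (log2 -1.12, SE 0.250, limma adjusted p 0.0149). That call was lost without epididymal HFD replicate B (0.0543) or C (0.0772). Ces1d went the other way on chow, higher in epididymal fat by 2.74 (SE 0.519, limma adjusted p 0.0037), with 241, 177 and 344 in mesentery. On HFD its difference was -0.95 and was not called. Ces1f was higher by 2.13 on chow (SE 0.656, limma adjusted p 0.0492), a call that 5 of 18 alternatives kept. It was lost without any 1 of 5 libraries: epididymal chow A (0.134), B (0.186) or C (0.0689), or mesentery chow A (0.186) or B (0.162).

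Of the drug-oxidising P450 genes, Cyp2e1 read 138, 125 and 398 in mesentery on chow, far below the 3 epididymal libraries, a log2 difference of 4.25 (SE 0.567, limma adjusted p 0.0003) called in all 18 alternatives. On HFD it read 137, 73.5 and 52.4 in mesentery, overlapping the epididymal libraries, with a log2 difference of 0.10 (SE 0.567, limma adjusted p 0.964). Cyp2d22 averaged 2541 ± 284 in mesentery and 1006 ± 353 in epididymal fat on HFD, a log2 difference of -1.39 (SE 0.224, limma adjusted p 0.0021) called in all 18 alternatives. On chow its difference was -0.54 (limma adjusted p 0.144).

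Of the P450 genes that act on fatty acids and sterols, Cyp2j6, of a subfamily that makes epoxides of arachidonic acid, averaged 404 ± 130 in mesentery and 824 ± 149 in epididymal fat on chow. Its log2 difference was 1.06 (SE 0.253, limma adjusted p 0.0146), lost without epididymal chow replicate A (0.0769) or mesentery chow replicate A (0.0594). Cyp27a1, the mitochondrial sterol hydroxylase of bile acid synthesis, read 1622, 846 and 369 in epididymal fat and 59.2, 16.1 and 342 in mesentery (log2 3.50, SE 0.852, limma adjusted p 0.0162). The call was lost with edgeR (0.0643) and without epididymal chow replicate A (0.0863) or B (0.0598), or mesentery chow replicate A (0.0610) or B (0.0574). Cyp4f18, which inactivates leukotriene B and is known from white blood cells, read 96.3, 332 and 56.2 in epididymal fat and 6.83, 3.58 and 42.2 in mesentery on chow (log2 3.41, SE 1.02, limma adjusted p 0.0445). It was not called with edgeR (0.0998), nor without epididymal chow replicate A (0.105) or B (0.198) or mesentery chow replicate A (0.140) or B (0.148). Its highest chow library, epididymal replicate B, also had the highest macrophage sum on chow. Among the epididymal chow libraries it had the highest adipocyte, mesothelial and endothelial sums as well. Aldh6a1 was higher in epididymal fat on chow by 1.50 (SE 0.230, limma adjusted p 0.0009) in all 18 alternatives, and its difference on HFD was -0.40. Of the 5 genes called lower on HFD in epididymal fat, 3 (Cyp2e1, Ces1d and Aldh6a1) were also called higher there than in mesentery on chow. Both calls use the same 3 epididymal chow libraries, so neither adds to the other. The share of all genes with both calls is not given here.

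**Figure D5:**
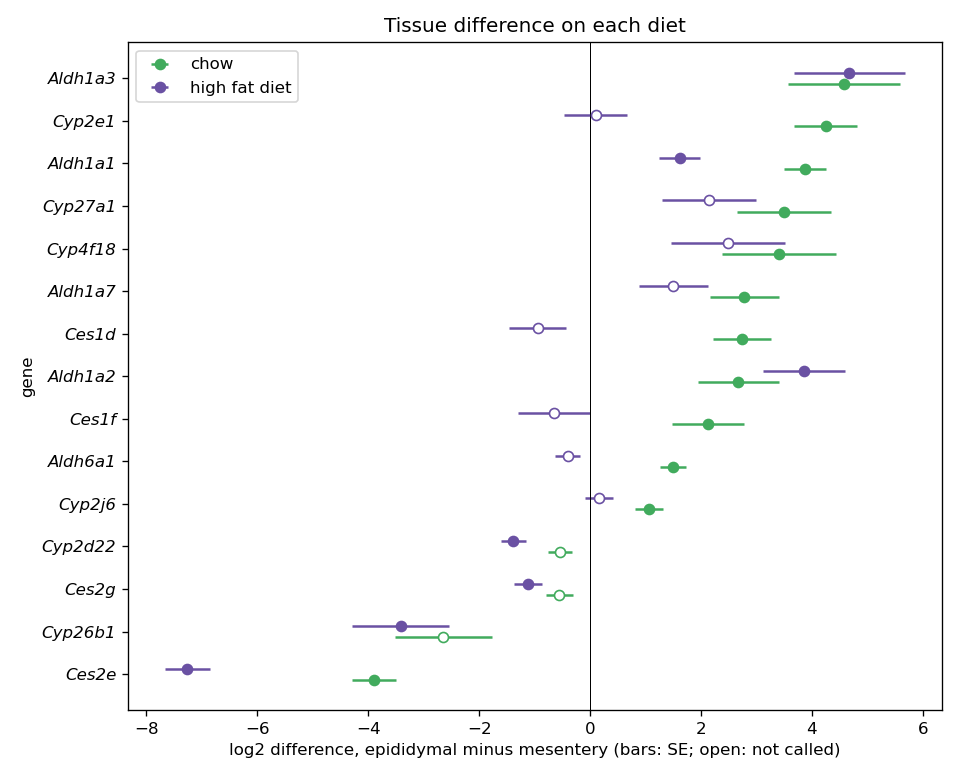
Log2 difference between epididymal fat and mesentery on chow (green) and on HFD (purple) for the 15 members called on either diet; bars are SE and open points were not called. The Aldh1a genes lie to the right on both diets, Ces2e far to the left on both, and Cyp2e1 moves from 4.25 on chow to 0.10 on HFD.

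Without the mean-variance trend Aldh1a2, Ces1f, Cyp27a1, Cyp2j6 and Cyp4f18 were not called on chow, nor Aldh1a1, Aldh1a3 and Cyp26b1 on HFD.

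The tissue comparisons also carried other cells. On chow 9 of 10 adipocyte markers, 5 of 10 macrophage markers, 7 of 10 fibroblast markers, 6 of 9 tested mesothelial markers and 8 of 10 smooth muscle and pericyte markers were called higher in epididymal fat, and 9 of 10 pancreatic acinar markers lower. On HFD 0 adipocyte, 8 macrophage, 8 fibroblast, 3 mesothelial and 5 smooth muscle markers were called higher and 9 acinar markers lower. Of the 10 endothelial markers, 2 were called higher and 5 lower in epididymal fat on chow, and 1 higher and 5 lower on HFD. No hepatocyte marker was called in any comparison by limma. Mesothelial markers summed to 3732 to 5976 in epididymal fat on chow, 3040 to 4469 on HFD and 973 to 1615 in mesentery. The part of these cells in the tissue differences was not tested.

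The leading members of the other roles, and the next highest of the lipid roles, were not called in any comparison. Cyp2j9 averaged 456 ± 248 in mesentery and 603 ± 122 in epididymal fat on chow. Aldh3a2, which oxidises long-chain fatty aldehydes, lay between 462 and 963 in all 12 libraries. Cyp39a1, an oxysterol hydroxylase, lay between 67.2 and 183. The vitamin D enzymes Cyp2r1, which activates the vitamin, and Cyp24a1, which degrades it, averaged at most 47.9 and 50.7 in any group. Aldh1l2, of one-carbon metabolism, ranged from 5.21 to 216 and Aldh8a1, of tryptophan breakdown, from 0 to 98.9.

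Beyond the 3 families, 84 genes of the same pathways were listed, 77 of them were in the file and 69 were tested. On the diets, 1 was called by limma: Rbp4, the plasma carrier of retinol, read 2069, 2197 and 1407 in epididymal fat on chow and 227, 804 and 469 on HFD (log2 -2.07, SE 0.402, limma adjusted p 0.0397). It was not called by edgeR, in the libraries of pools 50 to 53 alone, or when any 1 of the epididymal libraries other than HFD replicate B was left out. No listed gene was called in mesentery or for the difference between the diet effects. Between tissues on chow 15 were higher in epididymal fat and 3 lower, 26.1% of those tested against 12.8% of all genes. The higher ones included the nuclear receptors Pparg (1.99) and Nr1h3 (2.49), the epoxide hydrolase Ephx2 (3.27), which removes fatty acid epoxides, the alcohol dehydrogenase Adh1 (4.27) and the oestrogen sulfotransferase Sult1e1 (5.13), all log2 differences. The lower ones were the receptor Ahr, which switches on xenobiotic P450 genes (-2.52), the retinoic acid receptor Rarg (-1.48) and the monooxygenase Fmo2 (-1.42). On HFD 8 were higher and 3 lower, 15.9% against 8.34% of all genes, the latter again Ahr (-2.85), Rarg (-1.71) and Fmo2 (-2.06). Ahr read 2216, 2653 and 1405 in mesentery on chow and 298, 366 and 398 in epididymal fat. Por, which supplies P450 enzymes with electrons, averaged between 755 and 1161 in the 4 groups and was not called.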

How the data were processed

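The deposited values are a signal: reads per gene divided by 1 size factor per library. Per the submitters' processing notes the tools were STAR 2.7.9a, featureCounts, Subread and DESeq2 1.34.0, with mm39 as build; their settings and the use of strand are not given in the sources used here. Dividing each column by its smallest step gave whole reads for 100% of values (tolerance 1e-06), and the steps matched DESeq2 size factors. The lowest gene total was 51 reads. Intervals of 3 reads cover counting error only.

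Log2(normalized count + 1) values of the 22238 genes with a mean of at least 10 were fitted with limma 3.58.1 (R 4.3.3; lmFit, eBayes with a mean-variance trend) with 1 mean per group. The Benjamini-Hochberg adjustment ran over all genes tested in a comparison, with a threshold of 0.05. Fold changes on this scale understate the change of low genes. Alternatives used edgeR 4.0.16 or DESeq2 1.42.0 on the recovered reads, other pseudocounts, filters, scalings and sets of libraries. The scripts were tested on simulated data.

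Named members were those called in any comparison, up to 6 in each direction of a diet comparison with no overlap and 50 or more normalized counts on average in the higher group, and the 2 highest of each role; other members with no overlap were named after their values were seen. Members and gene lists were chosen with earlier results of these data known. Exon lengths came from a GRCm38 annotation and were used only for levels per kb. No columns of other samples were found. Correlations of the deviations of same-lettered libraries ran from -0.675 to 0.583. Between the tissues on chow they were 0.0273, 0.530 and 0.583 for letters A, B and C. Within each diet the mesentery and epididymal libraries of a letter carry the same pool number. No comparison had all 3 pairs above 0.1, so the main fit took neither letters nor pool numbers as pairs. So few pairs cannot show that the tissues were unpaired, and fits with these blocks are given below.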

Additional observations from a re-analysis of the deposited data

Results flagged for a closer look

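The Ces2e libraries were ordered in opposite ways in the tissues: all 3 HFD libraries lay above the chow libraries in mesentery (2351 ± 366 on chow and 3063 ± 221 on HFD, SD, n = 3) and below them in epididymal fat (190 ± 152 and 19.4 ± 5.24). The mesentery change of 0.39 on the log2 scale did not pass (SE 0.404, limma adjusted p 0.953), while the epididymal change of -2.98 did (SE 0.404, limma adjusted p 0.0059). The difference of the diet effects, epididymal minus mesentery, was -3.37 on the log2 scale (SE 0.571, limma adjusted p 0.151). It passed the threshold with DESeq2 (1.54e-05) and without epididymal chow replicate A (0.0482), and not with edgeR (0.501).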

How the results depend on the processing

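Called members for the diet in epididymal fat numbered 5 with limma, 2 with edgeR, 8 with DESeq2, 0 without the mean-variance trend, 3 in pools 50 to 53 alone and 2 to 5 when 1 library was left out, fewest without high fat replicate C. For the tissue difference on chow the 12 became 7 without the trend and 6 to 13 with 1 library left out, fewest without epididymal replicates A (6) and B (7). For the tissue difference on HFD the 7 became 4 without the trend and 3 to 8 with 1 library left out, fewest without epididymal replicate C. For the difference of the diet effects the 0 became 5 with DESeq2 and 0 to 1 with 1 library left out. The diet in mesentery gave 0 in each alternative. The cause of these shifts was not tested, and the shares of all genes called in the alternatives are not given here. Over named members and alternatives 639 results kept their side of the threshold, 77 were no longer called and 9 newly called, and none reversed. The 639 include results not called in the main fit that stayed uncalled, so they do not measure how firm the calls are. They also include the DESeq2 fits of Aldh1b1 and Cyp4f39 in epididymal fat, which gave no adjusted p.

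With the replicate block, the letter for diet and the pool number for tissue, called members were 0 for the diet in mesentery, 5 (the same 5) in epididymal fat, 12 for tissue on chow (Ces1f lost, Cyp26b1 gained), 8 on HFD (Aldh3b1 gained) and 0 for the difference of the diet effects. The samples share only a number, and not every library correlated positively with the library of its own number.

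Levels at or under 3 reads, 2.12 to 4.22 normalized counts by library, cannot be told from 0. Of the 49 members with a mean under 50, 38 (77.6%, against 64.0% of all such genes) read higher in the epididymal libraries of both pools 87 and 88 than in the 4 others, although these 2 had the fewest reads of the 6; the cause was not tested.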

Other observations

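Several family genes lay outside the rule because of the transcript type given in the table. Cyp4b1, a fatty acid and furan oxidase, was more abundant than any member. It read 4853, 6332 and 7273 normalized counts in mesentery on chow, 8904, 7951 and 6735 in mesentery on HFD, 17480, 16616 and 14458 in epididymal fat on chow, and 6383, 16750 and 11190 in epididymal fat on HFD. The epididymal and mesentery libraries on chow did not overlap, with a log2 difference of 1.41 (SE 0.302, limma adjusted p 0.0079), while the diet change in epididymal fat was -0.60 (limma adjusted p 0.797). Cyp20a1, whose substrate is not well known, was higher in epididymal fat on chow by 0.82 (SE 0.183, limma adjusted p 0.0101). Cyp4v3, a fatty acid hydroxylase, was higher there on HFD by 1.07 (SE 0.235, limma adjusted p 0.0138), with 409 ± 49.3 against 194 ± 27.0 (SD, n = 3). Aldh1l1, a folate enzyme, averaged 273 ± 28.8 in epididymal fat on chow and 136 ± 27.2 on HFD, without overlap, and did not pass (log2 change -1.01, SE 0.694, limma adjusted p 1).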
